A study of Homo sapiens with 6 samples.

Results

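The glycolysis and hypoxia-response genes are 33 genes taken by gene symbol from a fixed list, and all 33 were found among the 23340 gene names kept from the tables. They comprise 16 enzymes and regulators of glycolysis, 3 genes of lactate and pyruvate metabolism, 4 transporters of glucose and lactate, 7 targets of the hypoxia response and 3 genes of oxygen sensing. RNA sequencing compared them in 3 established human cell lines with 2 libraries each, 1 labelled with 25M reads and 1 with more (50M, or for MCF10A 100M in the title and 50M in the sample type). MCF10A derives from mammary epithelium and forms no tumours, HT-29 comes from a colorectal adenocarcinoma and MDA-MB-436 from a carcinoma of the breast.

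MCF10A is recorded as grown in DMEM/F12 with 5% horse serum, EGF at 20 ng/ml, hydrocortisone at 500 ng/ml, cholera toxin at 100 ng/ml and insulin at 10 µg/ml. For HT-29 the labels give McCoy's 5A medium with 10% FBS under 5% CO2, and treatment with interferon-γ (IFN-γ) at 200 U/ml for 24 hr. MDA-MB-436 is recorded in L-15 medium with 10% FBS and no added CO2. L-15 is formulated with galactose and pyruvate in place of glucose. Each line had its own medium, so line and medium cannot be told apart, and for HT-29 neither can line and IFN-γ, since untreated HT-29 was not analysed here. No label gives an oxygen level, and whether a line's 2 libraries stem from 1 culture is not stated. The spread behind the p-values below is thus that between libraries, and it may be technical only.

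The markers went against the labels of 2 lines. KRT20, an intestinal keratin, had normalised counts (reads scaled by 1 factor per library) of 29900 and 30880 in the MDA-MB-436-labelled libraries, and VIL1, which encodes villin, 2055 and 2198. In the HT-29-labelled libraries KRT20 was at 0.0 and 0.5 and VIL1 at 0 and 0. VIM, the mesenchymal filament vimentin, showed the opposite order, with 36599 and 35267 in the HT-29-labelled libraries against 16.5 and 7.4 in those labelled MDA-MB-436. VIM was also high in MCF10A, at 25901 and 26246, so it separates the MDA-MB-436-labelled libraries from the rest and not MCF10A from those labelled HT-29. The summed level of 6 markers of colon epithelium (KRT20, VIL1, CDX2, LGALS4, CDH1 and EPCAM) was 108173 to 111730 in the MDA-MB-436-labelled libraries. It was 114 in each labelled HT-29, where CDX2 and VIL1 had no read. In MCF10A the sum was 6701 to 6704, nearly all from CDH1 (5307 and 5324) and EPCAM (1397 and 1373), so the sum is not specific to colon. RB1, the tumour suppressor that MDA-MB-436 is known to have lost, was at 223.5 and 235.3 in the HT-29-labelled libraries and at 4931 and 4863 in those labelled MDA-MB-436. The sum of 3 IFN-γ response genes was 151015 to 152023 in the MDA-MB-436-labelled libraries, 3982 to 4022 in those labelled HT-29 and 483 to 506 in MCF10A. By these markers the HT-29 and MDA-MB-436 labels may be exchanged. If so, the IFN-γ treatment and the medium recorded for each of these lines apply to the libraries labelled as the other. Every group below is named as labelled (the HT-29-labelled and MDA-MB-436-labelled libraries), and all directions hold for the libraries as labelled. The libraries held 16.7M to 69.5M gene reads.

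Glycolysis turns glucose into pyruvate, and lactate dehydrogenase interconverts pyruvate and lactate. Many of its steps are run by isoenzymes, which are products of separate genes with the same reaction but different tissue distribution and regulation. When oxygen is low, the prolyl hydroxylases that mark HIF alpha subunits for destruction lose activity, and HIF-1 and HIF-2 then activate glycolytic enzymes, glucose and lactate transporters, angiogenic factors and feedback regulators. HIF binds a short core of letters, ACGTG or GCGTG, in promoters and enhancers, and the alpha subunits are controlled mainly at the protein level.

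The promoters of 3 hypoxia targets with large differences between the lines are shown here, because their levels are described below and each carries the HIF core. Each stretch holds the 250 bases before a RefSeq gene start on GRCh38.p14, written in the direction of transcription, and the capitals mark ACGTG or GCGTG on either strand, so that CACGT and CACGC are matches on the opposite strand. ANGPTL4, a secreted inhibitor of lipoprotein lipase, lies on the plus strand and the stretch is chr19:8363905-8364154. CA9, a cell surface carbonic anhydrase, lies on the plus strand at chr9:35673678-35673927. BNIP3, a mitochondrial mitophagy receptor, lies on the minus strand at chr10:131981924-131982173.
ANGPTL4: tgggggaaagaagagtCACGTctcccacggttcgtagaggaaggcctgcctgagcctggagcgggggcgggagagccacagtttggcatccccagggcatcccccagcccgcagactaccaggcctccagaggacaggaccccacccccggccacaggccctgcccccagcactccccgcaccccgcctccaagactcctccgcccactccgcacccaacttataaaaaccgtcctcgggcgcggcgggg
CA9: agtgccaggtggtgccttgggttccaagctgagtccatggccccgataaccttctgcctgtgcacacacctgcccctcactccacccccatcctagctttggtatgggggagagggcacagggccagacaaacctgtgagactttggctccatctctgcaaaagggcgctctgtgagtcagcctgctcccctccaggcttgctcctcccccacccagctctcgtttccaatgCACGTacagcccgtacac
BNIP3: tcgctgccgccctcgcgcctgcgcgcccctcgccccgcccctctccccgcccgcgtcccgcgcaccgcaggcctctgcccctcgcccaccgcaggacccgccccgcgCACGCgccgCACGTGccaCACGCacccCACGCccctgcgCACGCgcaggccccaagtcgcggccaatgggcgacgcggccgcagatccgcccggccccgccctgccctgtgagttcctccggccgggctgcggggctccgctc

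The ANGPTL4 window held 1 match, which begins 234 bases before the gene start, and the CA9 window 1 match, which begins 18 bases before it. The BNIP3 window held 6 matches between 104 and 143 bases before the start, of which an ACGTG on each strand overlap in a single palindrome. RefSeq promoters were found for 29 of the 33 genes, with 56 start sites, and not for SLC2A3, SLC16A1, VEGFA and NDRG1. ACGTG or GCGTG occurred in the window of 33 of these 56 starts (58.9%), and in 43.2% of all 35116 promoters of the same length. ACGTG alone occurred in 20 of the 56 (35.7%), against 18.5% of all promoters. Start sites of 1 gene can overlap, so these shares are descriptions, and a match is a run of letters and not a measured binding site.

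Together the 33 genes took 1.88% and 1.86% of gene reads in the 25M and the deeper MCF10A library, 1.5% and 1.45% in the HT-29-labelled libraries, and 1.06% and 1.09% in those labelled MDA-MB-436. The glycolytic enzymes made up most of this, with 1.29% and 1.27%, 1.14% and 1.1%, and 0.766% and 0.788% in the same order. The lactate and pyruvate genes showed a wider gap, at 0.403% and 0.400% in MCF10A against 0.179% and 0.175% in the HT-29-labelled libraries and 0.118% and 0.123% in those labelled MDA-MB-436. The hypoxia targets had another order, with 0.0773% and 0.0770% in the MDA-MB-436-labelled libraries and 0.0539% to 0.0547% in the other 4. Fewer cells that express a gene and less RNA per cell cannot be told apart in these bulk libraries. MCF10A held the largest share of glycolytic transcripts and the MDA-MB-436-labelled libraries the largest share of hypoxia target transcripts. The latter came mostly from 1 gene: VEGFA had 8000 of 12903 and 26761 of 43377 hypoxia target reads in these libraries. In MCF10A it had 605 of 9991 and 2312 of 37376. Of the 7 hypoxia targets, the MDA-MB-436-labelled libraries had the highest mean level for 2 and the lowest for 3.

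**Figure D1:**
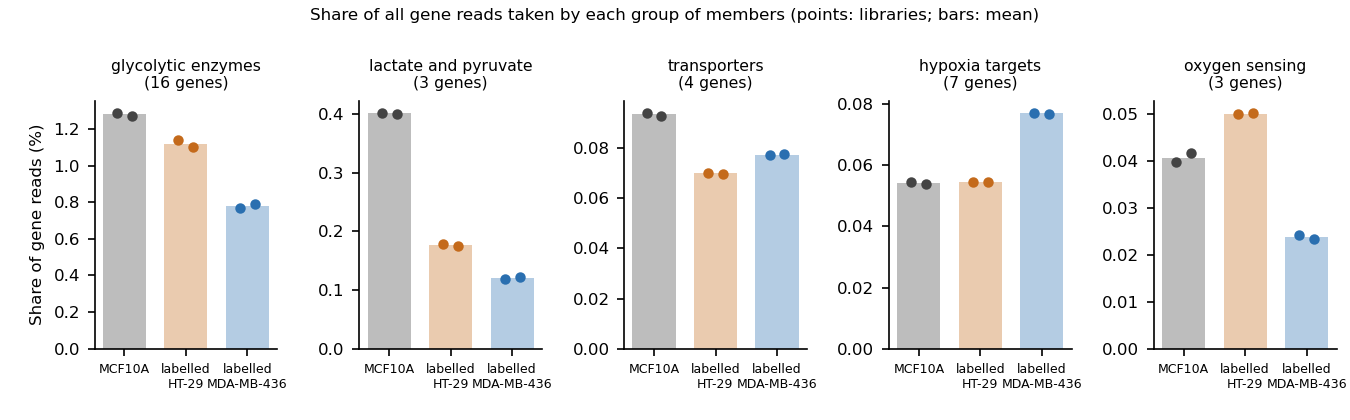
Percent of gene reads taken by each role group of the 33 genes, with 1 point per library and bars at the mean, for MCF10A and the HT-29-labelled and MDA-MB-436-labelled libraries. Lactate and pyruvate genes take 0.400% to 0.403% in MCF10A and at most 0.179% elsewhere. Hypoxia targets are highest in the MDA-MB-436-labelled libraries, where most of their reads are from VEGFA.

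Mean level was highest in MCF10A for 19 of the 33 genes (57.6%, against 29% of all genes tested) and lowest in the MDA-MB-436-labelled libraries for 21 (63.6%, against 36%). A gene was called when limma's Benjamini-Hochberg adjusted p was below 0.05 and its level differed at least 2-fold, a log2 fold change of at least 1. In the MDA-MB-436-labelled libraries against MCF10A, 5 of the 33 genes were higher and 10 lower, where 49.2% of all 15638 genes tested were called (25.6% higher and 23.7% lower). Against MCF10A the HT-29-labelled libraries had 8 genes higher and 8 lower, where 46.5% of all genes were called (28.4% higher and 18.1% lower). Between the HT-29-labelled libraries and those labelled MDA-MB-436, 9 were higher and 4 lower in the former, where 53.4% of all genes were called (29.9% higher and 23.5% lower). The members' shares called, 45.5%, 48.5% and 39.4%, were thus close to or below those of all genes. Their median log2 fold changes were -0.75, -0.31 and 0.39 in these comparisons, against 0.00, 0.13 and 0.09 over all genes.

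The scale of the HT-29-labelled libraries bears on these splits. Scaled by total reads alone, the data gave a shift in the median of all genes of 0.31 against MCF10A and of 0.34 against the MDA-MB-436-labelled libraries. The share of calls that were higher then went from 61.1% (4442 higher, 2823 lower) to 73.2% (5445 higher, 1989 lower) in the first of these, and from 56% (4675 higher, 3675 lower) to 67.1% (5692 higher, 2797 lower) in the second. With that scaling ALDOA (log2 fold change 0.02) and PGK1 (0.28) also turned higher in the HT-29-labelled libraries than in MCF10A. The count of genes highest in MCF10A therefore depends on the scale, and it was not made again with that scaling. The 3 comparisons share their libraries, so their counts are not independent of each other. Of the 33 genes, 11 were called in no comparison, 7 in 1, 8 in 2 and 7 in all 3. The last set was ENO2, SLC2A3, SLC16A3, CA9, VEGFA, BNIP3 and ANGPTL4. How all genes split in this way was not counted. Each comparison called 46.5% to 53.4% of all genes, so this split is only a description.

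**Figure D2:**
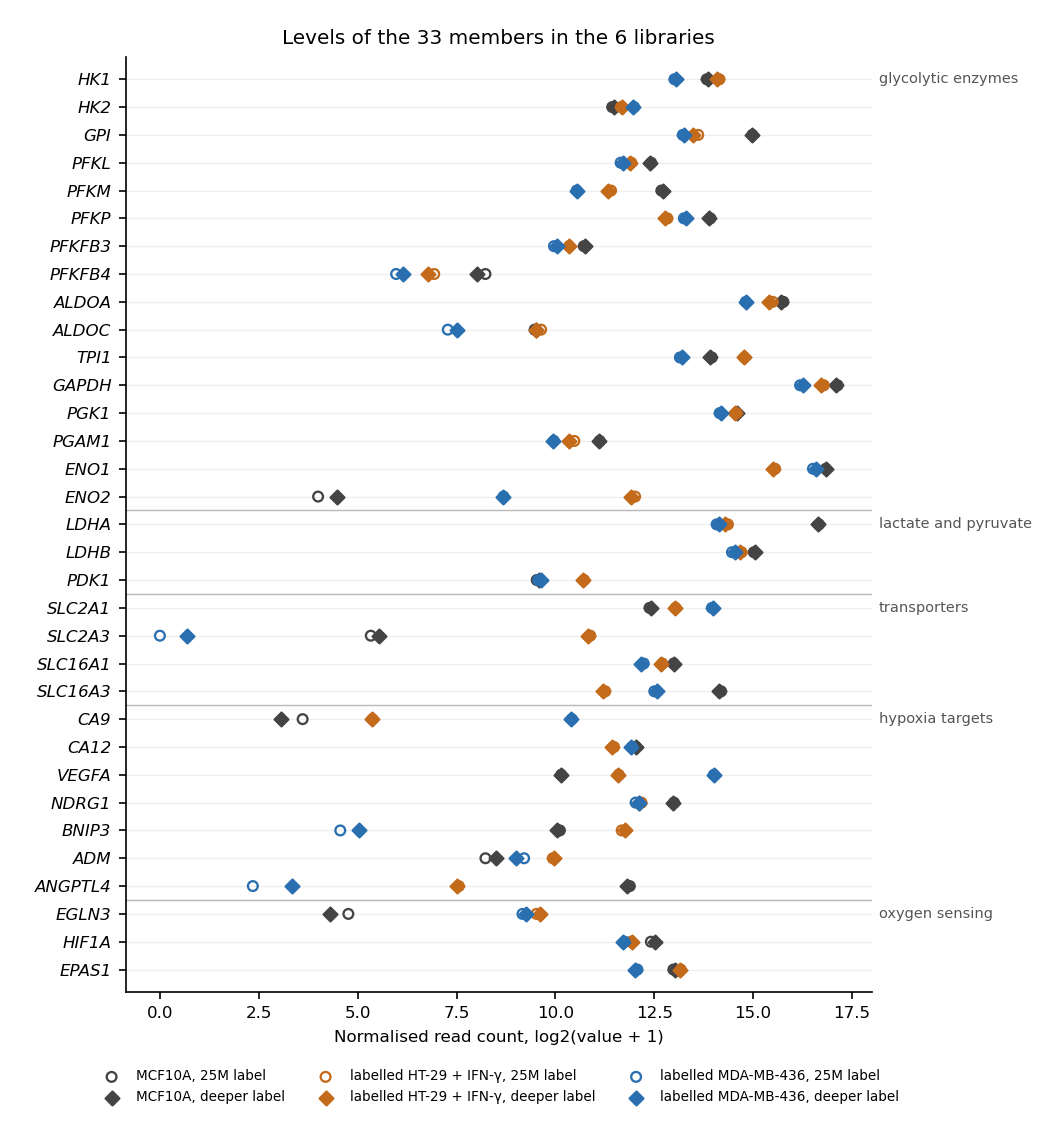
Normalised count on a log2(value + 1) axis for each of the 33 genes, grouped by role, with 1 point per library coloured by labelled line. Libraries of a line lie close together, and the widest gaps between lines are those of SLC2A3, ANGPTL4, ENO2, BNIP3 and CA9.

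Among the 16 glycolytic enzymes, 1 was higher and 5 lower in the MDA-MB-436-labelled libraries than in MCF10A, and 1 was higher and 5 lower in those labelled HT-29. The share called was 37.5% in both comparisons, below the 49.2% and 46.5% of all genes. Of all genes, 25.6% were higher and 23.7% lower in the first comparison, and 28.4% and 18.1% in the second. Hexokinase phosphorylates glucose and so commits it to the cell. HK1, the broadly expressed form, had normalised counts of 14527 and 14850 in MCF10A, 18157 and 17355 in the HT-29-labelled libraries, and 8247 and 8503 in those labelled MDA-MB-436. Its libraries did not overlap between lines, and it was 2.08-fold higher in the HT-29-labelled libraries than in those labelled MDA-MB-436 (interval 2.04 to 2.12, log2 fold change 1.08, SE 0.030, adjusted p = 1.27e-08). Folds are ratios of reads pooled over the libraries of a line and then scaled by the summed library factors. The deeper library thus weighs more in them, and their 95% intervals cover counting error only. HK2, an inducible form and a HIF target, was called in no comparison and spanned 2771 to 4066, highest in the MDA-MB-436-labelled libraries, although scaling by library size alone put the HT-29-labelled libraries level with them (log2 difference 0.02).

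GPI, which converts glucose 6-phosphate to fructose 6-phosphate, stood at 32319 and 32098 in MCF10A, 12518 and 11388 in the HT-29-labelled libraries, and 9552 and 9691 in those labelled MDA-MB-436. MCF10A was highest without overlap. The gene was 3.33-fold lower in the MDA-MB-436-labelled libraries (interval 3.28 to 3.38, log2 fold change -1.74, adjusted p = 5.61e-09) and 2.75-fold lower in those labelled HT-29 (interval 2.71 to 2.79, log2 fold change -1.43, adjusted p = 2.28e-08) than in MCF10A.

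Phosphofructokinase makes fructose 1,6-bisphosphate, the main control point of the pathway. PFKM, the muscle form, was at 6563 and 6711 in MCF10A, 2715 and 2595 in the HT-29-labelled libraries, and 1486 and 1501 in those labelled MDA-MB-436. It was 4.46-fold lower than in MCF10A in the MDA-MB-436-labelled libraries (log2 fold change -2.15, SE 0.033, adjusted p = 7.26e-10) and 2.54-fold lower in those labelled HT-29 (log2 fold change -1.32, adjusted p = 1.18e-08). PFKP, the platelet form, was at 15486 and 15094 in MCF10A, 7289 and 7010 in the HT-29-labelled libraries, and 9735 and 10136 in those labelled MDA-MB-436. MCF10A was again highest, but here the HT-29-labelled libraries were lowest. PFKP was 2.14-fold lower in these than in MCF10A (log2 fold change -1.1, adjusted p = 2.18e-08), a call that ended with scaling by library size alone (-0.79). PFKL, the liver form, was called in no comparison and spanned 3212 to 5487.

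PFKFB enzymes set the level of fructose 2,6-bisphosphate, which activates phosphofructokinase. PFKFB3 was at 1685 and 1732 in MCF10A, 1302 and 1309 in the HT-29-labelled libraries, and 998.4 and 1046 in those labelled MDA-MB-436, and was called in no comparison. PFKFB4, a second HIF-inducible form, had 299.6 and 258.2 in MCF10A, 121.5 and 108.9 in the HT-29-labelled libraries, and 61.8 and 70.2 in those labelled MDA-MB-436. The lines did not overlap for either gene, and both were highest in MCF10A. PFKFB4 was 3.91-fold lower than in MCF10A in the MDA-MB-436-labelled libraries (interval 3.26 to 4.71, log2 fold change -2.06, adjusted p = 2.66e-06). In the HT-29-labelled libraries it was 2.38-fold lower (interval 2.07 to 2.74, log2 fold change -1.27, adjusted p = 5.99e-05). That second call ended with scaling by library size alone (-0.96).

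Aldolase splits fructose 1,6-bisphosphate into a pair of triose phosphates. ALDOA, its main form in most tissues, was called in no comparison, with 55696 and 53836 in MCF10A, 46228 and 43340 in the HT-29-labelled libraries, and 28821 and 28982 in those labelled MDA-MB-436. ALDOC, the brain form, had 711.6 and 724.7 in MCF10A, 796.5 and 727.7 in the HT-29-labelled libraries, and 154.4 and 182.9 in those labelled MDA-MB-436. The MDA-MB-436-labelled libraries stood far below the other 4, which lay close together. ALDOC was there 4.09-fold lower than in MCF10A (interval 3.66 to 4.59, log2 fold change -2.09, adjusted p = 1.97e-07), and it was 4.23-fold higher in the HT-29-labelled libraries than in those labelled MDA-MB-436 (interval 3.78 to 4.74, log2 fold change 2.17, adjusted p = 1.5e-07).

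TPI1, which interconverts the triose phosphates, was at 15887 and 15264 in MCF10A, 28085 and 27687 in the HT-29-labelled libraries, and 9085 and 9481 in those labelled MDA-MB-436. Unlike most enzymes of the list it had its highest level in the HT-29-labelled libraries, 2.96-fold higher than in those labelled MDA-MB-436 (interval 2.91 to 3.01, log2 fold change 1.59, adjusted p = 1.80e-09). Its log2 fold change of 0.84 against MCF10A was under the fold threshold, and was 1.15 and called with scaling by library size alone. GAPDH, the glyceraldehyde phosphate dehydrogenase often used as a reference gene, ran from 74611 to 144064 and PGK1, phosphoglycerate kinase, from 18227 to 24881. Neither was called. GAPDH's log2 fold changes against MCF10A were -0.90 (SE 0.032) in the MDA-MB-436-labelled libraries and -0.37 (SE 0.032) in those labelled HT-29. GENCODE 29 names pseudogenes after 14 of the 33 genes, 62 of them after GAPDH, 13 after PGAM1, 6 after LDHA, 4 each after TPI1 and ENO1 and 3 each after LDHB and SLC2A3. How reads that match a gene and its copy were counted is not given, and the counts of these genes are uncertain for that reason.

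PGAM1, a phosphoglycerate mutase, was at 2223 and 2187 in MCF10A, 1427 and 1302 in the HT-29-labelled libraries, and 996.4 and 985.5 in those labelled MDA-MB-436. MCF10A was highest without overlap, and the gene was 2.22-fold lower in the MDA-MB-436-labelled libraries (interval 2.11 to 2.34, log2 fold change -1.15, adjusted p = 1.54e-07). Enolase makes phosphoenolpyruvate, and its forms had opposite orders. ENO1, the ubiquitous form, was at 117185 and 116656 in MCF10A, 48142 and 46119 in the HT-29-labelled libraries, and 93559 and 98253 in those labelled MDA-MB-436. ENO2, the neuronal form, was at 15 and 21.1 in MCF10A, 4142 and 3865 in the HT-29-labelled libraries, and 411.7 and 408.3 in those labelled MDA-MB-436.

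The HT-29-labelled libraries were thus lowest for ENO1 and highest for ENO2, with no overlap for either. ENO1 was 2.50-fold lower there than in MCF10A (log2 fold change -1.31, SE 0.029, adjusted p = 7.03e-09) and 2.08-fold lower than in the MDA-MB-436-labelled libraries (log2 fold change -1.02, adjusted p = 1.52e-08). The second of these stood at the fold threshold: it was -0.99 when the deeper library of either of these lines was left out, -0.70 with scaling by library size alone, and not called in these fits. ENO2 was 199-fold higher in the HT-29-labelled libraries than in MCF10A (interval 151 to 267, log2 fold change 7.73, adjusted p = 3.06e-09). In those labelled MDA-MB-436 it was 20.6-fold higher than in MCF10A (interval 15.5 to 27.9, log2 fold change 4.45, adjusted p = 3.05e-08), and 9.63-fold below those labelled HT-29 (interval 8.98 to 10.3).

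**Figure D3:**
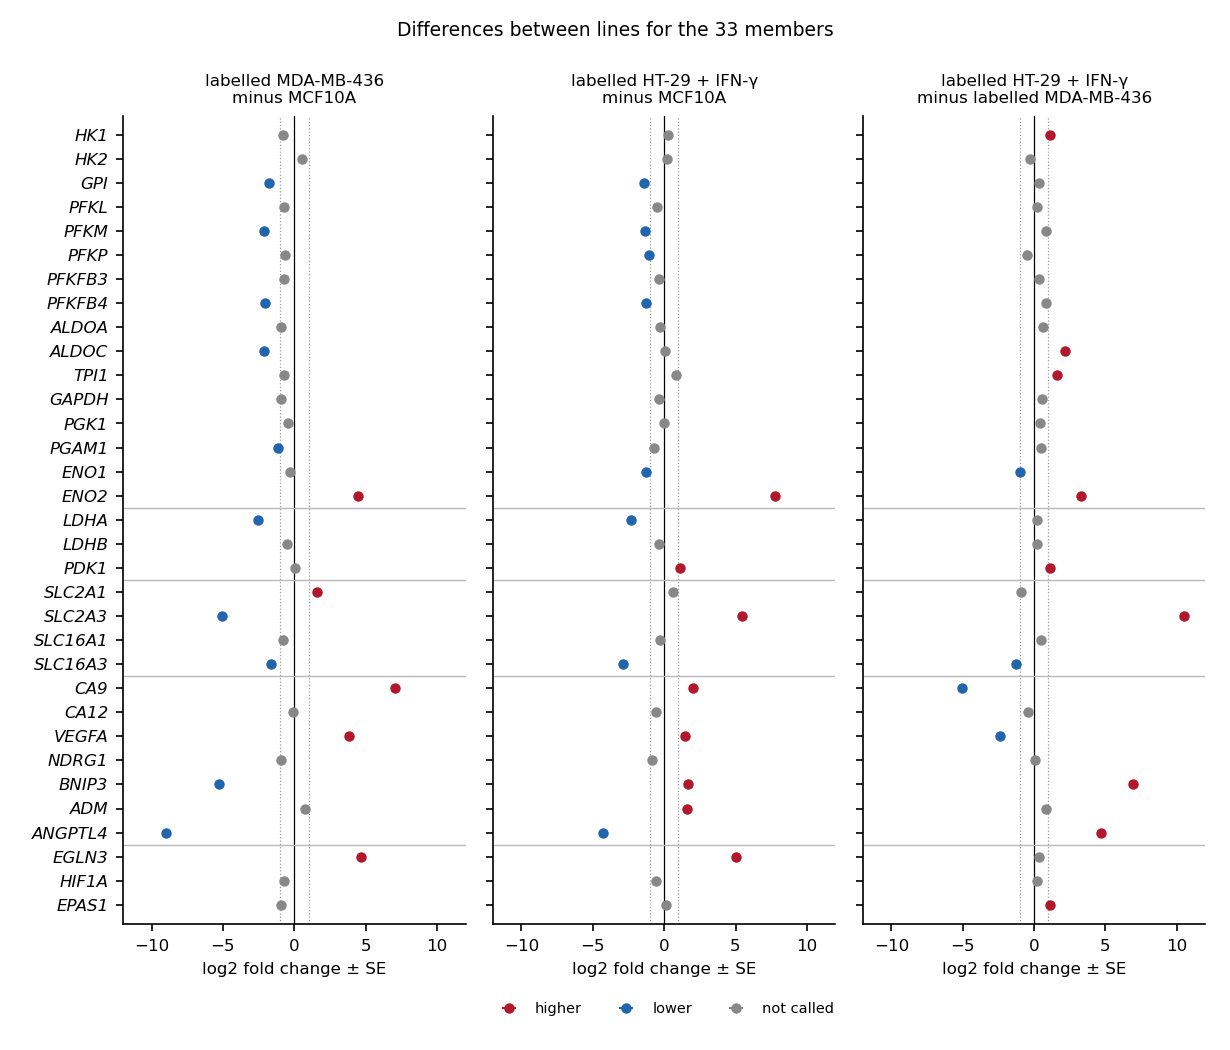
Log2 fold change with its standard error for each of the 33 genes in the 3 comparisons of lines, coloured where called higher (red) or lower (blue) at an adjusted p below 0.05 and at least 2-fold and grey otherwise, with lines marking a log2 fold change of 1 in each direction. LDHA lies far below the lower line in both comparisons with MCF10A, and the hypoxia targets spread widely to both sides.

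Of the 3 lactate and pyruvate genes, LDHA was lower in both other lines than in MCF10A, and PDK1 was higher in the HT-29-labelled libraries than in both other lines. LDHA, the lactate dehydrogenase subunit that predominates in skeletal muscle and is a classic HIF target, was at 103856 and 101640 in MCF10A, 21066 and 20099 in the HT-29-labelled libraries, and 17286 and 17978 in those labelled MDA-MB-436. The MCF10A libraries stood far above the other 4. LDHA was 5.73-fold lower than in MCF10A in the MDA-MB-436-labelled libraries (interval 5.67 to 5.79, log2 fold change -2.54, SE 0.030, adjusted p = 2.29e-10) and 5.02-fold lower in those labelled HT-29 (interval 4.97 to 5.06, log2 fold change -2.32, adjusted p = 6.35e-10). LDHB, the heart subunit, was called in no comparison and held 33199 and 33916 in MCF10A, 26724 and 26216 in the HT-29-labelled libraries, and 22608 and 23717 in those labelled MDA-MB-436.

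Set on a per-length scale (normalised count per kb of transcript, with the length implied by the deposited RPKM), LDHA made up 67.6% ± 0.665 (SD, n = 2) of lactate dehydrogenase transcripts in MCF10A, 34.7% ± 0.445 in the HT-29-labelled libraries and 34.2% ± 0.138 in those labelled MDA-MB-436. LDHB was the remainder and so the larger part outside MCF10A. The summed LDHA and LDHB level per kb of transcript was 73030 ± 396 (SD, n = 2) in MCF10A, 28536 ± 582 in the HT-29-labelled libraries and 24789 ± 787 in those labelled MDA-MB-436. The log2 ratio of LDHA to LDHB was 1.61 ± 0.044 in MCF10A, -0.36 ± 0.028 in the HT-29-labelled libraries and -0.39 ± 0.009 in those labelled MDA-MB-436, so the last 2 lines lay close together. PDK1, the kinase that inactivates pyruvate dehydrogenase, was at 737.8 and 773.3 in MCF10A, 1692 and 1648 in the HT-29-labelled libraries, and 759.6 and 789.0 in those labelled MDA-MB-436. Its levels in MCF10A and the MDA-MB-436-labelled libraries overlapped. PDK1 was 2.17-fold higher in the HT-29-labelled libraries than in MCF10A (interval 2.05 to 2.29, log2 fold change 1.14, adjusted p = 1.59e-07) and 2.12-fold higher than in those labelled MDA-MB-436 (interval 2 to 2.25, log2 fold change 1.11, adjusted p = 1.46e-07).

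Each line had its own pattern of transporters. SLC2A1, the widely expressed glucose transporter GLUT1, was at 5331 and 5479 in MCF10A, 8417 and 8367 in the HT-29-labelled libraries, and 15920 and 16248 in those labelled MDA-MB-436. The MDA-MB-436-labelled libraries were highest, 2.97-fold higher than MCF10A (interval 2.91 to 3.03, log2 fold change 1.57, SE 0.025, adjusted p = 8.20e-10). The log2 fold changes of the HT-29-labelled libraries were under the threshold, at 0.63 against MCF10A and -0.94 against those labelled MDA-MB-436.

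SLC2A3, the high-affinity transporter GLUT3, was at 39.3 and 45.2 in MCF10A, 1887 and 1826 in the HT-29-labelled libraries, and 0.0 and 0.6 in those labelled MDA-MB-436. The MDA-MB-436-labelled libraries were lowest, and together they held 1 read, against 113 in MCF10A and 4596 in the HT-29-labelled libraries. The HT-29-labelled libraries were 41.9-fold higher than MCF10A (interval 34.8 to 51.0, log2 fold change 5.43, adjusted p = 3.65e-07). Against MCF10A, the ratio for the MDA-MB-436-labelled libraries was 92.7-fold lower (interval 16.3 to 3694, adjusted p = 4.48e-07). Against the HT-29-labelled libraries it was 3887-fold lower (interval 697 to 153556, adjusted p = 7.11e-09). With a single read these sizes are known only within those intervals.

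Lactate leaves cells through monocarboxylate transporters. SLC16A3, which encodes MCT4, the HIF-inducible exporter, was at 18705 and 17885 in MCF10A, 2453 and 2378 in the HT-29-labelled libraries, and 5797 and 6079 in those labelled MDA-MB-436. MCF10A was highest and the HT-29-labelled libraries lowest. SLC16A3 was 7.53-fold lower in the HT-29-labelled libraries than in MCF10A (interval 7.33 to 7.74, log2 fold change -2.92, adjusted p = 4.75e-10) and 3.00-fold lower in those labelled MDA-MB-436 (interval 2.94 to 3.06, log2 fold change -1.62, adjusted p = 3.78e-09). Between the last 2 lines it was 2.51-fold lower in the HT-29-labelled libraries (log2 fold change -1.30, adjusted p = 1.18e-08), a call that ended with scaling by library size alone (-0.97). SLC16A1, which encodes MCT1, was called in no comparison, with 8157 and 8234 in MCF10A, 6663 and 6523 in the HT-29-labelled libraries, and 4817 and 4624 in those labelled MDA-MB-436.

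Isoenzyme choice differed by family. On the per-length scale the HT-29-labelled libraries had the largest shares of ENO2, 7.67% ± 0.131 (SD, n = 2) of enolase against 0.0151% ± 0.00367 in MCF10A and 0.417% ± 0.0168 in the MDA-MB-436-labelled libraries. The same libraries had the largest share of SLC2A3, 17.1% ± 0.268 of the GLUT1 and GLUT3 pair, against 0.722% ± 0.0564 in MCF10A and 0.00177% ± 0.0025 in the MDA-MB-436-labelled libraries. SLC16A1 took 57.5% ± 0.167 of the MCT1 and MCT4 pair in the HT-29-labelled libraries, 18.2% ± 0.571 in MCF10A and 28.3% ± 1.27 in those labelled MDA-MB-436. Not divided by length, these shares were 73.2%, 30.9% and 44.3%. MCT4 was thus the larger part in MCF10A and in the MDA-MB-436-labelled libraries, and MCT1 in those labelled HT-29.

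In hexokinase the result turned on which genes were counted. HK2 took 20.5% ± 0.558 (SD, n = 2) of the HK1 and HK2 pair in the MDA-MB-436-labelled libraries. Its share was 9.30% ± 0.0173 in MCF10A and 8.95% ± 0.331 in the HT-29-labelled libraries. Not divided by length, these shares were 32.5%, 16% and 15.5%. With HKDC1 counted as a further hexokinase, a choice made after its values were seen, the per-length share of HK2 was 11.5% ± 0.22 in the MDA-MB-436-labelled libraries, 9.28% ± 0.0129 in MCF10A and 8.22% ± 0.302 in those labelled HT-29. HKDC1 itself then took 44.1% ± 0.451, 0.202% ± 0.0467 and 8.16% ± 0.025 in the same order, beside 44.5% ± 0.67, 90.5% ± 0.0596 and 83.6% ± 0.327 for HK1. PFKM took 9.05% ± 0.174 of the 3 phosphofructokinases in the MDA-MB-436-labelled libraries, against 22% ± 0.582 in MCF10A and 17.7% ± 0.137 in the HT-29-labelled libraries, while PFKP held the largest share in every line (56.2% to 70.9%).

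The log2 ratios of 11 pairs of isoenzymes are given as descriptions, since the exact permutation test over the 15 ways to split 6 libraries into 3 unnamed pairs cannot give a p below 0.0667 and so cannot tell the lines apart. The widest spread among the 11 was that of SLC2A1 to SLC2A3, whose log2 ratio was 2.18 in the HT-29-labelled libraries, 6.97 in MCF10A and 13.63 in those labelled MDA-MB-436. ENO1 to ENO2 followed a different order, 3.56 in the HT-29-labelled libraries, 7.87 in those labelled MDA-MB-436 and 12.60 in MCF10A.

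**Figure D4:**
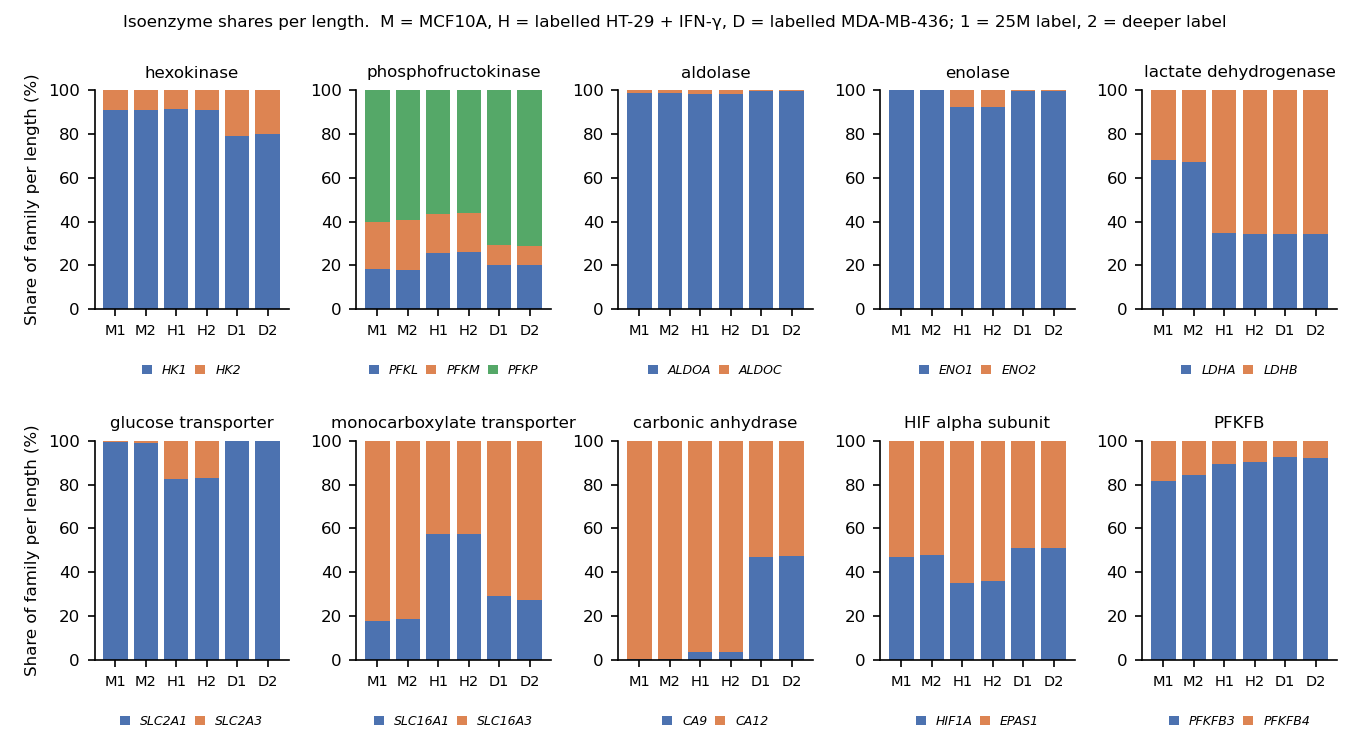
Percent of each isoenzyme family by length taken by its members, 1 bar per library, for MCF10A and the HT-29-labelled and MDA-MB-436-labelled libraries. LDHA takes 67.6% in MCF10A and 34.7% and 34.2% in the HT-29-labelled and MDA-MB-436-labelled libraries, and SLC16A1 is the larger part only in the HT-29-labelled libraries.

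Calls among the hypoxia targets went in both directions. Of 7, 2 were higher and 2 lower in the MDA-MB-436-labelled libraries than in MCF10A, where 25.6% of all genes were higher and 23.7% lower. In those labelled HT-29, 4 were higher and 1 lower, where the shares of all genes were 28.4% and 18.1%. With 7 genes these counts are descriptions, and mixed directions were also seen over all genes. CA9, the cell surface carbonic anhydrase whose promoter window is shown above, was at 11.2 and 7.4 in MCF10A, 40.5 and 40.5 in the HT-29-labelled libraries, and 1367 and 1357 in those labelled MDA-MB-436. The MDA-MB-436-labelled libraries stood far above the rest, and the order of the lines had no overlap. CA9 was there 166-fold higher than in MCF10A (interval 109 to 269, log2 fold change 7.07, SE 0.2, adjusted p = 1.47e-08) and 33.6-fold higher than in the HT-29-labelled libraries (interval 27.5 to 41.3, adjusted p = 9.60e-08). The HT-29-labelled libraries were 4.96-fold higher than MCF10A (interval 3.08 to 8.35, log2 fold change 2.04, adjusted p = 2.81e-05), on 101 against 21 reads.

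CA12, the related membrane carbonic anhydrase, was called in no comparison, with 4198 and 4179 in MCF10A, 2858 and 2782 in the HT-29-labelled libraries, and 3932 and 3851 in those labelled MDA-MB-436. By length CA9 made up 47.2% ± 0.238 (SD, n = 2) of the pair in the MDA-MB-436-labelled libraries, 3.54% ± 0.0639 in those labelled HT-29 and 0.564% ± 0.163 in MCF10A, and, not divided by length, 25.9%, 1.42% and 0.221%. VEGFA, the main angiogenic growth factor, followed the order of CA9. It was at 1133 and 1135 in MCF10A, 3104 and 3081 in the HT-29-labelled libraries, and 16469 and 16482 in those labelled MDA-MB-436. VEGFA was 14.5-fold higher in the MDA-MB-436-labelled libraries than in MCF10A (interval 14.0 to 15.1, log2 fold change 3.86, SE 0.025, adjusted p = 2.44e-11) and 5.34-fold higher than in those labelled HT-29 (interval 5.21 to 5.47, adjusted p = 1.41e-10). It was 2.72-fold higher in the HT-29-labelled libraries than in MCF10A (interval 2.61 to 2.84, log2 fold change 1.45, adjusted p = 2.31e-09).

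BNIP3, the mitophagy receptor, and ANGPTL4, the lipase inhibitor, went the other way in the MDA-MB-436-labelled libraries. BNIP3 was at 1107 and 1048 in MCF10A, 3273 and 3444 in the HT-29-labelled libraries, and 22.6 and 32.0 in those labelled MDA-MB-436. These last libraries held 63 BNIP3 reads in all, 35.5-fold lower than MCF10A (interval 27.6 to 46.3, log2 fold change -5.27, adjusted p = 1.11e-08) and 114-fold lower than the HT-29-labelled libraries (interval 88.8 to 148, adjusted p = 2.68e-09). The HT-29-labelled libraries were 3.21-fold higher than MCF10A (interval 3.07 to 3.35, log2 fold change 1.64, adjusted p = 1.25e-05). BNIP3 has 39 pseudogenes named after it in GENCODE 29, so its counts are uncertain in the same way as those of GAPDH. The BNIP3 window printed above held 6 matches, and whether they bear on the BNIP3 levels was not tested.

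ANGPTL4 was at 3773 and 3615 in MCF10A, 187.5 and 182.8 in the HT-29-labelled libraries, and 4.1 and 9.2 in those labelled MDA-MB-436. MCF10A was highest by a wide margin, and the MDA-MB-436-labelled libraries held 17 reads in all. The gene was 453-fold lower there than in MCF10A (interval 283 to 777, log2 fold change -9, SE 0.280, adjusted p = 2.46e-08) and 19.8-fold lower in the HT-29-labelled libraries (interval 18.0 to 21.8, log2 fold change -4.31, adjusted p = 2.21e-06). Levels in the HT-29-labelled libraries were 22.8-fold higher than those labelled MDA-MB-436 (interval 14.1 to 39.5, adjusted p = 1.10e-06). KRT14, a basal keratin abundant in MCF10A, had 0.037% of its MCF10A level in the 25M library labelled MDA-MB-436 and 0.00028% in the deeper one. The same percent of the MCF10A ANGPTL4 level is 1.4 of the 4.1 and 0.01 of the 9.2, and its part in the low ANGPTL4 values was not tested further.

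ADM, which encodes the vasodilator peptide adrenomedullin, was at 299.6 and 361.8 in MCF10A, 978.1 and 1001 in the HT-29-labelled libraries, and 590.8 and 514.3 in those labelled MDA-MB-436. Levels in the HT-29-labelled libraries were highest, 2.85-fold higher than MCF10A (interval 2.64 to 3.08, log2 fold change 1.58, adjusted p = 2.22e-06). NDRG1, a stress-responsive growth regulator, was called in no comparison and spanned 4177 to 8187, highest in MCF10A. Against MCF10A, BNIP3, VEGFA, ADM and CA9 were thus higher in the HT-29-labelled libraries and ANGPTL4 lower. In the MDA-MB-436-labelled libraries CA9 and VEGFA were higher, and BNIP3 and ANGPTL4 lower.

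Of the oxygen sensing genes only EGLN3 and EPAS1 were called. EGLN3, a prolyl hydroxylase of the HIF alpha subunits that is itself a HIF target, was at 26.2 and 18.7 in MCF10A, 733.5 and 774.8 in the HT-29-labelled libraries, and 574.4 and 615.9 in those labelled MDA-MB-436. MCF10A stood far below the other 4 libraries. EGLN3 was 37.8-fold higher in the HT-29-labelled libraries (interval 28.7 to 50.7, log2 fold change 5.03, SE 0.154, adjusted p = 3.11e-08) and 30.0-fold higher in those labelled MDA-MB-436 (interval 22.7 to 40.4, log2 fold change 4.69, adjusted p = 3.29e-08) than in MCF10A. Between the last 2 lines its log2 difference of 0.34 did not pass (SE 0.154, adjusted p = 0.0679). ACGTG or GCGTG was not found in the EGLN3 window.

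HIF1A, the HIF-1 alpha subunit, was called in no comparison, with 5460 and 5844 in MCF10A, 3845 and 3940 in the HT-29-labelled libraries, and 3434 and 3333 in those labelled MDA-MB-436. EPAS1, the HIF-2 alpha subunit, was at 8101 and 8308 in MCF10A, 9214 and 9079 in the HT-29-labelled libraries, and 4309 and 4127 in those labelled MDA-MB-436. The MDA-MB-436-labelled libraries were lowest for both. EPAS1 was 2.19-fold higher in the HT-29-labelled libraries than in those labelled MDA-MB-436 (interval 2.13 to 2.24, log2 fold change 1.12, adjusted p = 1.03e-08). Its log2 fold change of -0.96 in the MDA-MB-436-labelled libraries against MCF10A was just under the threshold, and was called at -1.02 with TMM scaling. By length EPAS1 made up 64.3% ± 0.634 (SD, n = 2) of the pair in the HT-29-labelled libraries, 52.6% ± 0.753 in MCF10A and 48.8% ± 0.235 in those labelled MDA-MB-436. HIF alpha protein was not measured.

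Beside the 33 genes, 77 other genes of the same pathways were listed, of which 66 were tested. In the MDA-MB-436-labelled libraries against MCF10A 15 were higher and 23 lower, 57.6% of those tested, where 49.2% of all genes were called, with a median log2 fold change of -0.73. In the HT-29-labelled libraries against MCF10A 22 were higher and 12 lower (51.5%, against 46.5% of all genes, median 0.14), and the 12 became 4 with scaling by library size alone. Between the HT-29-labelled and MDA-MB-436-labelled libraries 22 were higher and 10 lower in the former (48.5%, against 53.4% of all genes, median 0.44), and the 10 became 6 when the 25M library of the latter was left out. Among 28 other hypoxia targets, 5 were higher and 13 lower in the MDA-MB-436-labelled libraries than in MCF10A, where 25.6% of all genes were higher and 23.7% lower. In the HT-29-labelled libraries 12 of the 28 were higher and 6 lower than in MCF10A, where the shares of all genes were 28.4% and 18.1%. Against the MDA-MB-436-labelled libraries 13 of the 28 were higher and 1 lower in those labelled HT-29. The shares of all genes were there 29.9% and 23.5%.

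PKM, pyruvate kinase, which the tables list as PKM2, was at 88610 and 87382 in MCF10A, 36568 and 34981 in the HT-29-labelled libraries, and 44907 and 46417 in those labelled MDA-MB-436. It was lower in the HT-29-labelled libraries than in MCF10A (log2 fold change -1.30), a call that ended with scaling by library size alone (-0.99). In those labelled MDA-MB-436 it was at -0.95, called at -1.01 with TMM scaling. Of the regulators, EGLN1, the main prolyl hydroxylase, was at 3571 and 3602 in MCF10A, 3608 and 3552 in the HT-29-labelled libraries, and 1668 and 1617 in those labelled MDA-MB-436. EGLN1 was lower in the last of these than in MCF10A (log2 fold change -1.13). VHL, the ubiquitin ligase subunit that recognises hydroxylated HIF, was at 1654 and 1615 in MCF10A, 3710 and 3927 in the HT-29-labelled libraries, and 2553 and 2505 in those labelled MDA-MB-436. ARNT, the shared beta subunit, was at 1620 and 1758, 4476 and 4381, and 982.0 and 990.4 in the same order. The HT-29-labelled libraries were highest for both, with log2 fold changes of 1.22 for VHL and 1.39 for ARNT against MCF10A.

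Named by size of change among the other genes, FBP1, HKDC1 and CXCR4 were the highest in the MDA-MB-436-labelled libraries against MCF10A, at log2 fold changes of 8.93, 7.96 and 6.66. FBP1, fructose bisphosphatase, runs the phosphofructokinase step in reverse and was at 809.0 and 845.6 there against 1.9 and 0.0 in MCF10A. STC2, TMEM45A and LOX were the lowest, at -9.14, -6.91 and -5.53. STC2, a secreted glycoprotein, was at 6.2 and 3.1 in the MDA-MB-436-labelled libraries against 3056 and 3030 in MCF10A. LOX, which cross-links collagen, was at 22.6 and 27.7 against 1228 and 1181.

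Against MCF10A the HT-29-labelled libraries were highest for CXCR4, HKDC1 and RORA, at 6.73, 5.70 and 5.50, and lowest for PDK4, DDIT4 and LOX, at -5.74, -3.66 and -2.17. CXCR4, a chemokine receptor, was at 562.5 and 539.5 there against 1.9 and 8.3 in MCF10A, and PDK4, a further pyruvate dehydrogenase kinase, at 10.5 and 19.2 against 807.1 and 823.3. PDK1 and PDK4 thus went opposite ways in these libraries. Between the HT-29-labelled libraries and those labelled MDA-MB-436, STC2, TMEM45A and ARNT2 were highest, at 9.19, 8.88 and 8.24, and FBP1, GPD1 and DDIT4 lowest, at -7.98, -5.24 and -3.62.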

How the data were processed

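RNA was measured in 6 libraries, 2 for each of 3 cell lines, and groups were taken from the labelled line. The submitters' processing notes name FastQC, STAR 2.2.0, HTSeq and the genome hg19. Annotation, strand setting and the treatment of reads that map to several places are not given, and overlapping or antisense genes may share reads. Per the file headers each deposited table pairs 23368 gene symbols with normalised counts and RPKM values. The 28 symbols read as dates were left out. The authors' normalised counts form a signal in which each library has its own factor: 100% of values were whole multiples of 1 step (tolerance 0.001), which gave back whole reads. Totals of the 25M and deeper library were 18.3M and 69.5M reads in MCF10A, 18.4M and 50.2M in the HT-29-labelled and 16.7M and 56.4M in the MDA-MB-436-labelled libraries. The deposited RPKM column was out of register with the symbols in 3325 rows, and in 14 after reordering without regard to case (tolerance 0.01). The reordered RPKM gave the transcript lengths and nothing else.

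Differences were tested with limma 3.58.1 (trend, robust) in R 4.3.3 on log2(normalised count + 1), with all 6 libraries in 1 fit of 3 residual degrees of freedom, over the 15638 genes that reached a normalised count of 10 in 2 or more libraries. All 33 genes passed this filter. On that log2 scale the change of low genes is understated. On simulated counts the fit was tested before use. Alternatives were edgeR 4.0.16 and DESeq2 1.42.0 on the recovered reads, TMM or library size scaling, a pseudocount of 10, no filter, a test against 2-fold, a read depth block, MCF10A as 1 sample, and leaving out each library. The members and gene lists were chosen with earlier results of these data known. Values in every library are given for members called in at least 1 comparison or holding over 50% of their family by length. For other pathway genes, the 3 furthest from 0 on each side of a comparison are named, where called and at a normalised count of 100 or more in the higher line, plus PKM, EGLN1, VHL and ARNT. The median chi-square between the libraries of a line was 0.553 (MCF10A), 0.730 (HT-29-labelled) and 0.686 (MDA-MB-436-labelled), against 0.455 from sampling alone. The libraries were counted as 2 samples because they are labelled as such, and these values do not show whether they came from separate cultures.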

Additional observations from a re-analysis of the deposited data

How the results depend on the processing

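Of the values of the 33 genes in the 3 comparisons over all alternatives, 1463 of 1485 kept their direction and side of the threshold, 9 lost the call, 6 gained it and 7 changed sign. These 7 and the sign changes of other genes given here were all in differences that were not called. In the MDA-MB-436-labelled libraries against MCF10A, PDK1 was at -0.02 with edgeR and -0.03 with TMM scaling. In the HT-29-labelled libraries against MCF10A, library size scaling gave 0.02 for ALDOA, 0.28 for PGK1 and 0.31 for EGLN1, edgeR gave -0.02 for ALDOC and -0.04 for STC2, TMM scaling -4.2e-03 for ALDOC and DESeq2 1.9e-03 for EGLN1. With 1 library left out, EGLN1 ran from -0.01 to 0.01 and STC2 from -0.01 to 0.11 in this comparison, and DDIT4 from -0.08 to 1.5e-04 in the MDA-MB-436-labelled libraries against MCF10A. HK2 was at 0.02 in the HT-29-labelled libraries against those labelled MDA-MB-436 with library size scaling. The test against 2-fold ended the calls of PFKFB4 in the HT-29-labelled libraries against MCF10A, and of ENO1 and PDK1 against the MDA-MB-436-labelled libraries. In this last comparison library size scaling called PFKM (1.16), PFKFB4 (1.12) and ADM (1.17). Counts of members called did not move by over 1.5 times except with library size scaling, which left 2 lower in the HT-29-labelled libraries than in those labelled MDA-MB-436. With 1 library left out that count was 3 to 4, and the other counts stood at 5 and 10, 8 and 8, and 9. Among the other pathway genes library size scaling left 4 lower in the HT-29-labelled libraries than in MCF10A, and 6 to 10 were lower than in those labelled MDA-MB-436 with 1 library left out (6 without the MDA-MB-436-labelled 25M one). The labels give no replicate numbers, and with the read depth label as a replicate block the counts of members called were 5 and 10, 8 and 8, and 9 and 4, as without it. With counts not divided by length, EPAS1 was 55.5% of the HIF alpha pair in the MDA-MB-436-labelled libraries, against 48.8% by length. Depth limits the sizes of folds that rest on few pooled reads: in the MDA-MB-436-labelled libraries SLC2A3 (1), ANGPTL4 (17) and BNIP3 (63), and in MCF10A CA9 (21), ENO2 (51) and EGLN3 (52).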
